A study of Mus musculus with 2 samples.

Results

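The noncoding entries of the imprinted Dlk1-Dio3 cluster on mouse chromosome 12 were examined in the E17.5 experiment of the series. They are all entries of the deposited catalog of known imprinted genes that lie in the cluster, other than the protein-coding genes Dlk1, Rtl1 and Dio3. This gave 23 of the 128 catalog entries. There were 3 long noncoding RNAs (Meg3, Rian and Mirg), 14 microRNAs and 6 entries with MBII names, which are names of small nucleolar RNAs (snoRNAs). All 23 are listed on the plus strand and marked as expressed from the maternal allele. They span 204 kb of mm9, from chr12:110783828 to chr12:110987665.

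The data were 2 RNA-Seq libraries from whole brains of F1 embryos, 1 for each direction of the cross. The BxC embryo had a C57BL/6J mother and a CAST/EiJ father, and the CxB embryo had a CAST/EiJ mother and a C57BL/6J father. By the study's methods the CxB brain was male, and which of its BxC brains was deposited is not given in the sources used here. No treatment other than the cross is given, the RNA was selected by its polyA tail and the reads were 36 bases long. The aligned reads numbered 128944754 for BxC and 109719746 for CxB, as the sum of a count column of the files that was taken as the number of identical reads. These sums are above the mean number of reads per library that the study's methods give, a difference that could not be resolved, and every RPM value rests on them. Levels are given as RPM, reads scaled to a library of 1000000. A count of 0 allows up to 3 reads, or 0.0233 RPM in BxC and 0.0273 in CxB. Since each cross has a single library, the crosses could not be tested against each other. All intervals are at 95% and cover counting error only. Cross, embryo, library and the strain of the maternal allele cannot be told apart.

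Both libraries carried brain RNA, as the neuronal tubulin gene Tubb3 stood at 974 RPM per kb of exon in BxC and 840 in CxB. Of the 7 pituitary markers, Gh and Cga were at 0 in both libraries. Pomc had 220 reads in BxC and 184 in CxB, and Pou1f1 had 154 and 178. The summed level of the 7 was 2.50 in BxC and 2.66 in CxB. The 5 muscle markers summed to 3.65 and 3.71. The 5 blood markers summed to 279 in BxC and 227 in CxB, mostly from adult globins, while the embryonic globin gene Hbb-bh1 was at 0. The 4 markers of meninges and connective tissue summed to 45.5 and 42.1, and none was at 0. The part of these cells in the values below was not tested.

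In this cluster the maternal chromosome is known to produce a chain of noncoding RNAs, while the paternal chromosome produces the protein-coding genes. Meg3 (also called Gtl2) lies at the start of the chain and is spliced and polyadenylated. Rian follows and carries C/D box snoRNAs, which typically guide 2'-O-methylation of other RNAs and are cut from introns of their host. Mirg, at the end, hosts part of a large group of microRNAs, which are cut as hairpins from long transcripts and repress messenger RNAs that pair with their seed.

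All 14 microRNA entries matched a RefSeq hairpin by sequence, and both mature arms of each were found on the plus strand of mm9. Their 28 mature sequences are 20 to 22 bases long, so a read of 36 bases cannot be a mature microRNA, and the reads described below came from longer RNA. The 28 seeds were all different. The entries within the Rtl1 interval are shown first, since they lie opposite to Rtl1, the retrotransposon-derived gene of the other strand, and are known to be fully complementary to its transcript. Capitals mark the seed (bases 2 to 8), and the sequences are written 5′ to 3′ from RefSeq, with positions from the exact match in mm9.
miR-431-5p, chr12:110828669-110828689: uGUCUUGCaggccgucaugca
miR-433-3p, chr12:110829991-110830012: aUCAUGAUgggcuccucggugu
miR-127-3p, chr12:110831098-110831119: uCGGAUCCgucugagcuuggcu
miR-434-3p, chr12:110832775-110832796: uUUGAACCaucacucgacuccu
miR-136-5p, chr12:110833541-110833562: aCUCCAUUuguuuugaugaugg
The next sequences belong to the hairpins that had reads in BxC and none in CxB, and to miR-410, the last hairpin of the catalog in the tract, which lies within Mirg.
miR-370-3p, chr12:110856515-110856536: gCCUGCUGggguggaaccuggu
miR-376b-3p, chr12:110961718-110961738: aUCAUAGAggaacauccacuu
miR-410-3p, chr12:110981974-110981994: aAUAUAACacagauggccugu

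Reads covered the tract nearly without a break from Meg3 to Mirg and stopped sharply at the Mirg end. All 1-kb bins of the annotated Meg3, Rian and Mirg spans held at least 10 reads in each library, as did 34 of 34 bins between Meg3 and Rian. Between the Rian end and the first hairpin of the distal microRNA group (Mir379), 45 of 49 bins reached this count. In the 526 kb from the Mirg end to Dio3os, 8 of 527 did. The kilobase that ends at the Mirg end held 1408 reads in BxC and 721 in CxB, against 36 and 4 in the kilobase after it. In front of Meg3, the last kilobase held 25 and 20 reads. From there the density rose in steps. It was 1.81 RPM per kb in BxC and 1.77 in CxB in the bin that holds the Meg3 start. In the bin that begins 3.79 kb after the start it was 307 and 271. Read starts were counted on either strand here, since the libraries were not stranded.

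**Figure D1:**
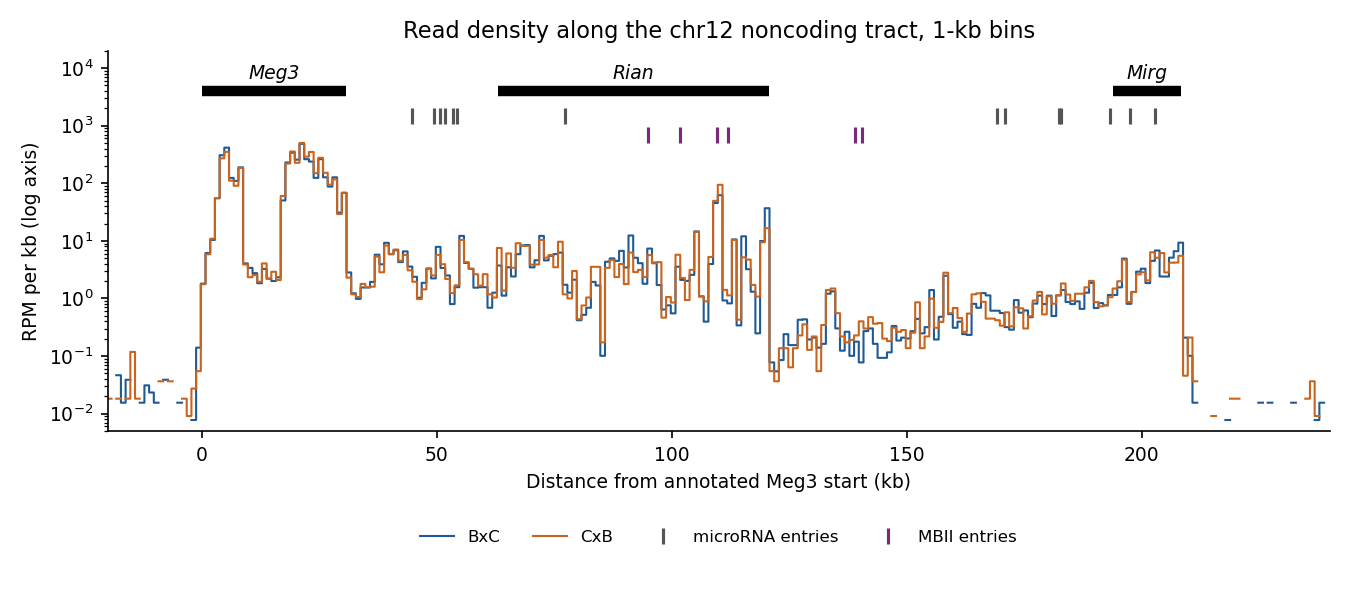
RPM per kb in 1-kb bins (log axis) against the distance from the annotated Meg3 start in kb, for the BxC and CxB libraries, with the annotated spans of Meg3, Rian and Mirg as bars and the microRNA and MBII entries as ticks. Both libraries follow each other over the tract, with a Spearman rank correlation of 0.968 over 205 bins, and both fall where Mirg ends.

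The density of reads differed by segment of the tract. It was 128 RPM per kb over the Meg3 span in BxC and 130 in CxB. It was 3.41 and 3.27 between Meg3 and Rian, where the Rtl1 microRNAs lie, and 6.28 and 6.51 over the Rian span. The lowest density inside the tract, 0.413 and 0.460, was between Rian and Mir379, where the second snoRNA group lies. From Mir379 to the Mirg start it was 0.829 and 0.900, and over the Mirg span it was 3.78 and 3.60. None of these segments differed between the libraries by more than 0.16 on the log2 scale.

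A long intron inside Meg3 was thinly covered. Over the 8426 bases from chr12:110788021 to chr12:110796446 the mean depth was 11.5 reads per base in BxC and 9.54 in CxB. The exon in front of it had a mean depth of 2972 and 2508, and the exon behind it 1701 and 1840. In the plot of reads along the tract this intron is the trough within Meg3.

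Reads fell on both strands. The share on the plus strand over the tract was 40.7% in BxC (40.6 to 40.9, exact Clopper-Pearson) and 41.4% in CxB (41.2 to 41.5). Over 13884 protein-coding genes the share on the annotated strand was 43.1% and 42.6%, although the study's methods describe a strand-specific protocol. Reads on either strand were therefore counted over each entry, and the strand of reads is given elsewhere only as a description. For the 5 microRNAs within Rtl1, reads of the microRNA host and of Rtl1 cannot be told apart.

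Of the 23 entries, 12 had at least 10 reads in both libraries, which were the 3 long RNAs, 5 of the 14 microRNAs and 4 of the 6 MBII entries. The other 11 fell short in at least 1 library, and MBII-78 and MBII-19 had 0 reads in both. Of all annotated small RNA genes on the plus strand of the tract, 18 of 51 microRNA genes and 8 of 23 snoRNA genes reached this count. The share over intervals of like size in the genome was not computed, so whether 12 of 23 is usual is not known. A read counted where at least 1 base overlapped, which raises the level per kb of entries as short as 30 to 123 bases relative to the long RNAs. In whole brain, fewer cells that make an RNA and less RNA per cell cannot be told apart.

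**Figure D2:**
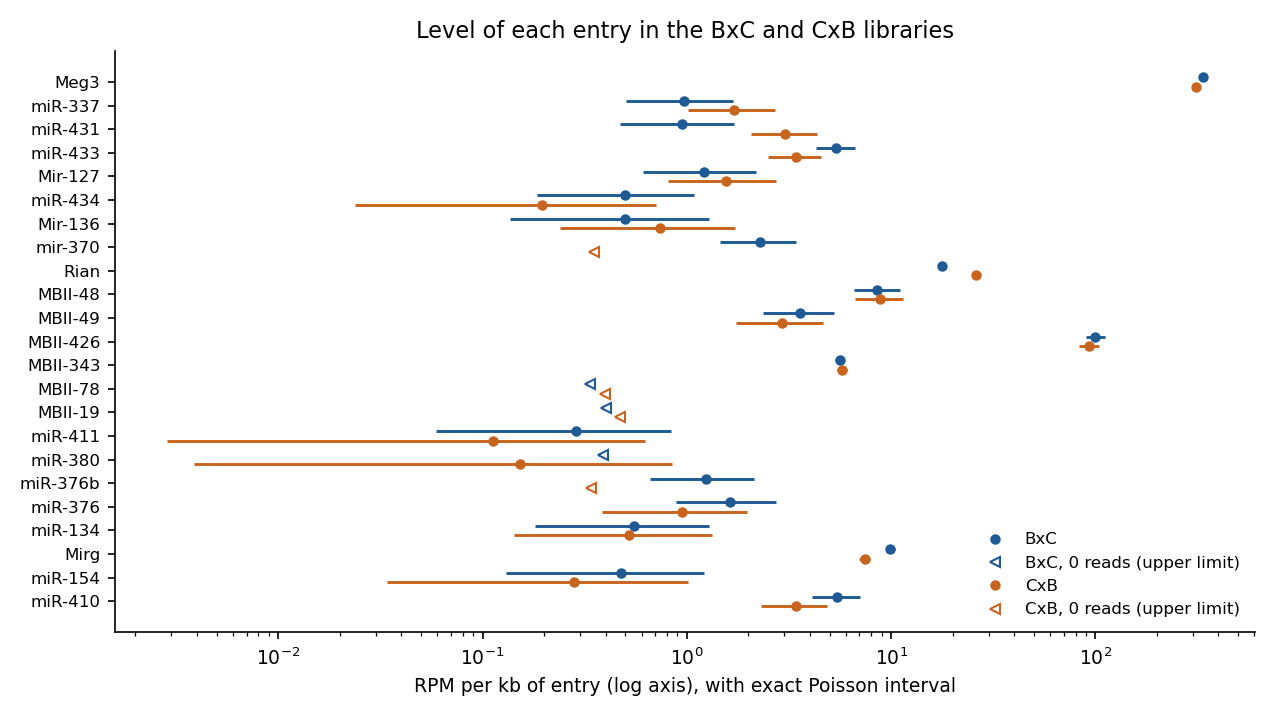
RPM per kb of each entry (log axis) in the BxC and CxB libraries, with 95% Poisson intervals as lines and open triangles at the limit of 3 reads for entries without reads. Meg3 stands above 300 in both libraries, Rian and Mirg between 7 and 26, and all microRNA entries below 6.

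Meg3 had by far the most reads of the entries and the highest RPM per kb. Over the exons listed in the catalog it had 186065 reads in BxC and 147796 in CxB, or 335 and 312 RPM per kb. Counted by distinct positions, that is 1 for each start, strand and block pattern whatever the number of reads, it stood at 59.1 and 64.6 per kb, scaled in the same way to all positions of the library. That count has a ceiling set by the length of the exons, so it understates a deeply covered RNA. The annotated Meg3 gene is longer at both ends, with 463238 and 405376 reads at 199 and 204 RPM per kb, and the catalog exons held 40.2% and 36.5% of these reads. By annotated exons it ranked first of 1272 lincRNA genes in both libraries, and 92nd in BxC and 89th in CxB of 31780 genes of at least 200 bases.

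Rian came second of the long entries. Over its catalog exons it had 2333 reads in BxC and 2885 in CxB, or 17.8 and 25.9 RPM per kb. The catalog entry covers only the middle of the annotated gene, whose exons held 28502 and 27318 reads, at 27.0 and 30.4 RPM per kb. A single kilobase, chr12:110889001-110890000, held 8012 reads in BxC and 10321 in CxB, of which 77.6% and 77.8% were on the plus strand. The position with most reads gave 16.0% and 25.2% of them.

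Mirg was the lowest of the 3, with 1649 reads in BxC and 1056 in CxB over its catalog exons, or 9.87 and 7.43 RPM per kb. Its last exon was the deepest, with 922 and 538 reads. The order Meg3, Rian, Mirg was the same in both libraries and over annotated exons, and the intervals of neighbors in this order did not overlap. Over the whole spans of the catalog entries, introns included, Mirg stood above Rian by 0.16 and 0.19 on the log2 scale, while over the annotated spans, which are longer for Rian, Rian was above Mirg.

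The 3 RNAs also differed in how far exons stood above introns. Over annotated exons the mean depth was 7.01 times that of the introns for Meg3 in BxC and 7.99 times in CxB. For Rian it was 9.26 and 11.4 times. For Mirg it was only 1.71 and 1.30 times. Among all reads of the tract, 12.6% in BxC and 11.2% in CxB lay in introns and 2.54% and 2.48% outside any annotated gene or entry.

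Spliced reads took the largest share in Rian. Of the reads in its span, 3.85% in BxC and 5.78% in CxB were spliced, against 0.699% and 0.669% in Meg3 and 0.794% and 0.963% in Mirg. A read was counted for a junction where it was aligned in a pair of blocks that flank the intron. For its screen, the study aligned to junction sequences built from gene models, with at most 2 skipped exons. If that alignment was deposited, junctions outside such models could not be found. The splice sites and end bases given below then follow at least in part from that reference. Junction reads numbered 3542 in BxC and 2932 in CxB within Meg3, 1798 and 2386 within Rian, and 56 and 55 within Mirg. Of 67 junctions seen in the tract, 41 had at least 2 reads in each library, and 39 of these had the bases GT and AG at the intron ends. The Mirg exception began with GC, and that intron is annotated. The other lay outside the 3 genes, with TT and CT at its ends and 3 reads in each library. The annotation or the catalog holds 32 of the 41.

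In Meg3, 12 of 16 known introns were seen in both libraries. The junction with the most reads, chr12:110784753-110787688, had 678 reads in BxC and 477 in CxB. The long intron described above was spliced in 519 and 520 reads. Behind it 2 acceptors shared nearly all reads, since the donor at chr12:110796531 was joined to chr12:110796849 in 296 of 532 reads in BxC and 317 of 574 in CxB, or 55.6% (51.3 to 59.9) and 55.2% (51.1 to 59.3). The same donor skipped to chr12:110809600 in 42.5% and 44.8%. The shares of both endings thus lay within each other's intervals.

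In Rian, 18 of 24 known introns were seen in both libraries, and the junctions with the most reads lay beyond the catalog entry. The junction chr12:110892643-110894058 had 373 reads in BxC and 444 in CxB. The next introns, which begin at chr12:110894145 and chr12:110895051, had 256 and 295 reads and 215 and 259 reads. In Mirg, 5 of 9 known introns were seen in both libraries. The last one, chr12:110986504-110987304, had 23 and 31 reads and was the best covered.

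Among the 9 junctions with at least 2 reads in each library that neither source lists, 3 lay in Meg3, 4 in Rian, 1 in Mirg and 1 outside. Unlisted means absent from the annotation and the catalog used here. Such a junction can still come from the gene models of the study. The Mirg junction, chr12:110980501-110981875, was seen in 7 reads in BxC and 10 in CxB, and it ends where a catalog exon begins. The unlisted Rian junction with the most reads in both, chr12:110844554-110845623, had 17 reads at 7 positions in BxC and 63 reads at 15 positions in CxB.

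The choice of acceptor at a donor was compared between the libraries for donors with at least 20 junction reads in each and at least 2 acceptors. A donor was counted where the share of an acceptor differed by at least 20 percentage points with intervals apart. This held for 3 of 11 donors in the tract and for 0.841% of 4876 donors in plus-strand genes over the genome. Identical reads can be copies made by PCR, so the count was repeated with distinct alignment positions. It then held for 2 of 9 donors in the tract and for 0.0822% of 2434 over the genome, which are the same 2, in Rian and in Meg3. Intervals come apart more easily at donors with more reads, and the donors were not matched on depth. The shares are therefore given as a description only. This comparison was added after junction counts had been seen.

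The Rian donor at chr12:110876137 was joined to the next annotated exon in 94 of 94 reads in BxC and in 100 of 172 in CxB. The other 72 reads in CxB, at 20 positions, skipped this exon of 62 bases and joined chr12:110880774. The share that skipped was 0% in BxC (0 to 3.85) and 41.9% in CxB (34.4 to 49.6). From another donor, chr12:110865364, a junction that also passes over this exon had 6 reads in BxC and 2 in CxB, so the exon was not always kept in BxC. The skipping junction is not annotated, but its donor and its acceptor are each used by annotated introns. A reference of model junctions with skipped exons would hold only such sites, so this reuse is no separate support for the junction. The junction that leaves the skipped exon had 25 reads in BxC and 12 in CxB. The junction that follows the shared acceptor exon had 197 and 274. The donor and both acceptors follow from mm9, with the intron's end bases in capitals.
Rian donor, intron from chr12:110876137: acagacGTaagtgg
Acceptor of the next exon, intron to chr12:110878476: cctggcatttgacaccatAGaatg
Acceptor after skipping, intron to chr12:110880774: cccatgtgcttatccctcAGaacc
The bases are those of the C57BL/6J reference. The files list no bases of the reads, so a difference between the strains at these sites was not tested.

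The Meg3 difference that rests on the most reads lay at an exon in front of the catalog entry. The donor at chr12:110782953 was joined to the exon that starts after chr12:110783157 in 176 of 680 reads in BxC and 22 of 585 in CxB, or 25.9% (22.6 to 29.3) and 3.76% (2.37 to 5.64). It skipped that exon in 503 and 560 reads, or 74.0% and 95.7%. By distinct positions the inclusion shares were 38.1% (27.7 to 49.3) and 11.9% (4.91 to 22.9). The junction that leaves the exon had 281 reads in BxC and 22 in CxB. At the first Meg3 donor, chr12:110779310, the annotated acceptor took 46 of 54 reads in BxC and 19 of 38 in CxB, and the other reads went to the acceptor at chr12:110782236, which is annotated with another donor but not with this one. The reads lay at 13 and 3 positions in BxC and at 12 and 6 in CxB, too few to count this donor by distinct positions.
Meg3 donor, intron from chr12:110782953: cgccagGTaggggc
Acceptor of the included exon, intron to chr12:110783157: ttttttcatgatttttaaAGaggt
Acceptor after skipping, intron to chr12:110784639: tgtctgtctttccttcacAGcccc

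**Figure D3:**
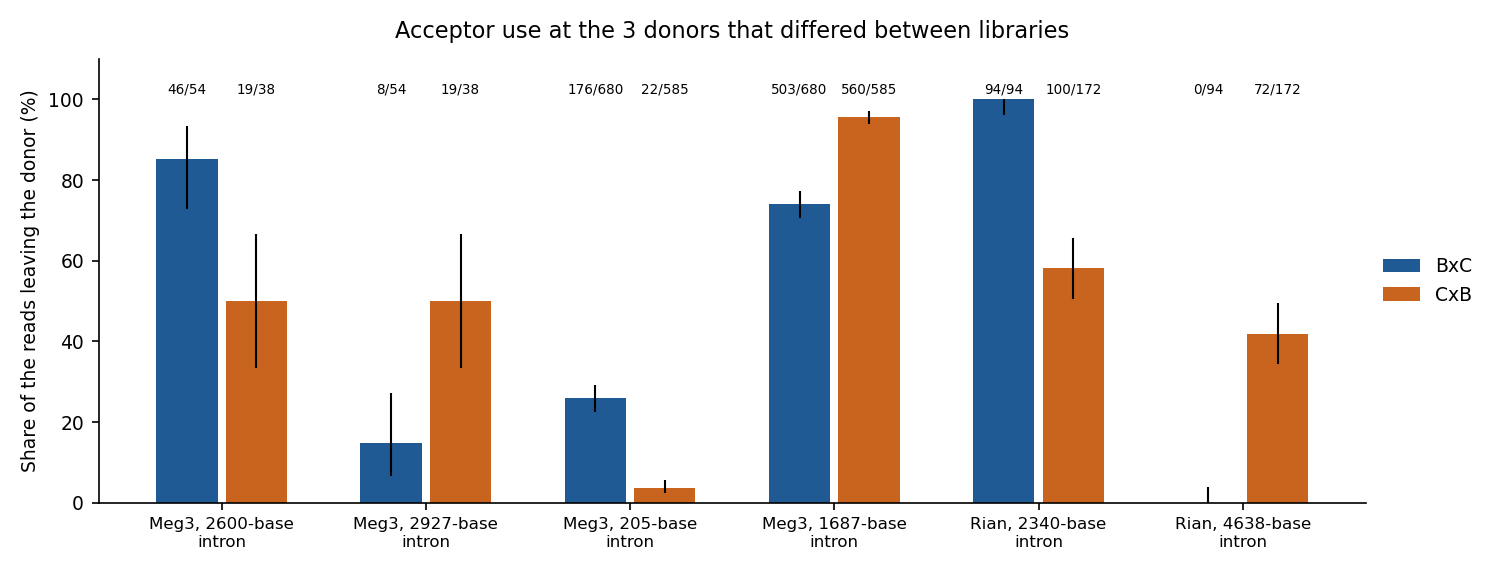
Share of the junction reads that leave a donor for each acceptor, in percent, at the 3 donors whose use differed between BxC and CxB, with exact 95% intervals and the reads of the junction over those of the donor written above. In Rian the 4638-base intron that skips an exon took 0 of 94 reads in BxC and 72 of 172 in CxB.

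Coverage was lower over the microRNA hairpins than beside them. For all 14 entries, the mean depth over the hairpin was lower than over its 500-base flanks in both libraries. Of 17765 windows of 84 bases spread over the tract from the Meg3 end to the Mirg end, 54.5% were. The median depth over the entries was 28.9% of the flanks in BxC and 29.5% in CxB, while for those windows it was 68.7% and 64.9%. Hairpins share hosts and lie in groups, so they are not independent of each other.

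Mir-127, opposite Rtl1, had a depth of 0.871 reads per base in BxC against 17.1 in its flanks, or 5.11%. In CxB the values were 2.94 and 14.9, or 19.7%. Its entry had 11 and 12 reads. The annotated Mir127 hairpin is longer, 97 bases, and over it the depth was 43.1% of the flanks in BxC and 35.6% in CxB, so the depth of this gap depends on the boundaries used. Mir-136 stood at 7.33% of its flanks in BxC and 20.1% in CxB, with 4 and 5 reads. No read lay wholly within the Mir-127 entry in either library, and 1 and 6 lay wholly within the annotated hairpin.

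The other entries within Rtl1 were less even. miR-434 had 6 and 2 reads, at 33.9% and 10.3% of its flanks. miR-431 had 11 reads in BxC and 30 in CxB, and was at 24.4% and 96.3%. miR-433 had the most reads of any microRNA entry, 85 in BxC and 46 in CxB, or 5.36 and 3.41 RPM per kb, and 54 and 36 of them lay wholly within the hairpin. miR-337, which lies in front of Rtl1, had 12 and 18 reads and stood at 26.3% and 56.8% of its flanks.

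In the distal group, miR-410, which lies within a catalog exon of Mirg, had 56 reads in BxC and 30 in CxB, at 55.8% and 37.0% of its flanks. These reads are also counted in Mirg. The downstream edge of miR-410 was crossed by 33 and 11 reads, and its upstream edge by 6 and 1. miR-411, miR-380, miR-134 and miR-154 had between 0 and 5 reads each. The entry listed as miR-376 matched Mir376a by sequence and had 14 and 7 reads.

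A pair of catalog hairpins had over 10 reads in BxC and 0 in CxB. mir-370, within the annotated Rian gene, had 23 reads at 8 positions in BxC and 0 in CxB. Set against the limit of 3 reads, that is 6.52-fold higher in BxC. miR-376b had 13 reads at 6 positions and 0, or 3.69-fold. Counted by distinct positions, these values were 2.29-fold and 1.72-fold. They take the BxC count as exact and leave out its counting error, so they are not lower bounds. Of the 51 annotated hairpins of the tract, 4 had reads in BxC only, these 2 among them, and 2 had reads in CxB only. The other hairpins with reads in 1 library had at most 2 reads. Both had flanks covered in CxB, with a mean depth of 5.26 around mir-370 and 5.71 around miR-376b. All 36-base words that overlap either hairpin occur once in the C57BL/6J reference. The maternal allele in CxB is that of CAST/EiJ, and how its reads aligned there was not tested.

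The pattern was not limited to the catalog. The annotation lists 51 microRNA genes on the plus strand of the tract, of which 12 overlap catalog entries, and 46 of the 51 were lower than their flanks in both libraries. Of the 39 outside the catalog, 34 were lower in both and 3 were higher in both. One of the latter was Mir544, with a depth of 14.5 against 5.06 in BxC and 15.0 against 5.26 in CxB. Over the 51 the median was 29.9% in BxC and 35.6% in CxB. Within 40 bases of the hairpin centre the median depth ranged from 16.4% to 29.2% in BxC and from 16.1% to 40.6% in CxB. At 200 to 500 bases from the centre it ranged from 25.5% to 89.0% and from 24.1% to 95%. The median GC content was 46.0% over the 14 catalog entries and 51.2% over their flanks, and 48.6% over the 51 annotated hairpins and 50.6% over theirs, and its part in the depth was not tested.

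**Figure D4:**
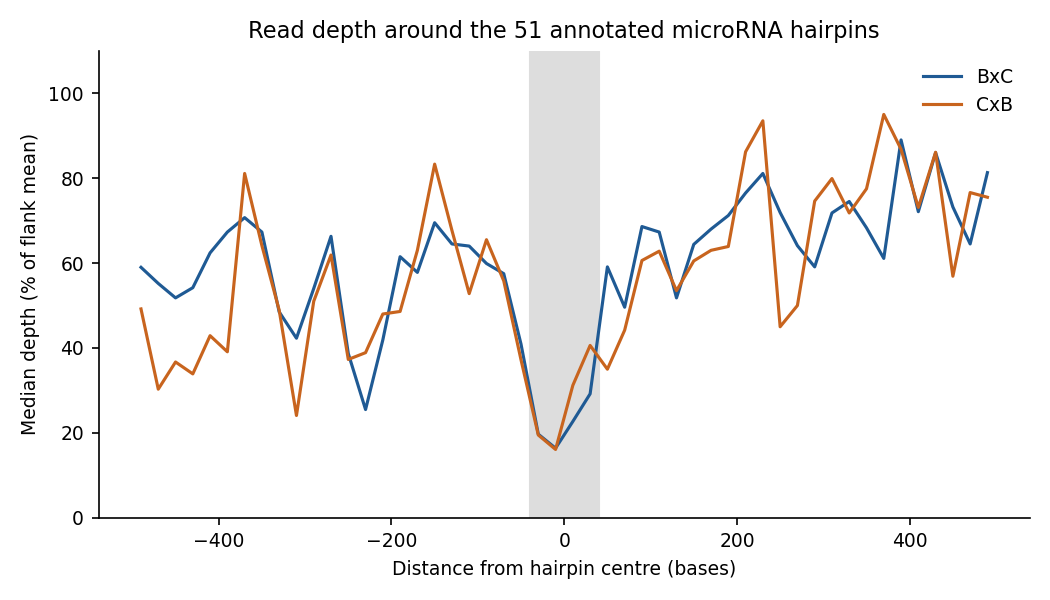
Median depth in steps of 20 bases, as percent of the mean of the 500-base flanks of each hairpin, against the distance in bases from the hairpin centre, for 51 annotated microRNA genes in BxC and CxB. The lowest points, 16.4% in BxC and 16.1% in CxB, lie in the shaded 40 bases on either side of the centre.

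Mir770, inside the last Meg3 exon of one annotated transcript, was the best covered hairpin, with 2168 reads in BxC and 2112 in CxB. Even there the depth was 474 against 1209 in the flanks in BxC, and 499 against 1338 in CxB. The hairpin also lies within the intron chr12:110796531-110809600, which took 42.5% of the reads of its donor in BxC and 44.8% in CxB. Depth over this hairpin was also lower than beside it, in a stretch that is exon or intron depending on the Meg3 transcript. The windows compared above begin at the Meg3 end, so how usual such a value is within Meg3 was not tested.

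The counts over snoRNA genes differed by place, as did the density of all reads. Of the annotated snoRNA genes, 13 lie within Rian and 10 after it, the last ending at chr12:110927754. Within Rian, 8 of 13 had at least 10 reads in both libraries, and the median count over the genes was 25 reads in BxC and 16 in CxB. After Rian, 0 of 10 did, and the counts ran from 0 to 7 in each library. Density of all reads was 6.28 RPM per kb in BxC and 6.51 in CxB over the Rian span. From the Rian end to Mir379 it was 0.413 and 0.460. Other windows of like size were not counted, so the split is not shown to be particular to snoRNA genes. MBII-78 and MBII-19, of this second group, had 0 reads each, although all 36-base words over them are unique. With 0 reads the upper 3-read limit is all that can be given for them. Their flanks had a mean depth between 0.614 and 1.88.

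Among the MBII entries of Rian, MBII-48 had 63 reads in BxC and 55 in CxB and stood above its flanks, at 171% and 177%. Its upstream edge was crossed by 43 and 44 reads. MBII-49 had 26 and 18 reads, at 69.6% and 35.3% of its flanks. MBII-426 had 387 and 306 reads, at 49.5% and 29.8% of its flanks, but its entry is 30 bases long, shorter than a read. MBII-343 had 1496 and 1297 reads over an entry of 2064 bases, which also holds spliced exon ends of Rian, so its level is not that of a snoRNA.

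C and D boxes are the short motifs after which this class of snoRNA is named. TGATGA was searched for in the first 20 bases and CTGA in the last 20 bases of each of the 23 annotated snoRNA genes, on their own strand. Both were found in 14 of them, TGATGA in 17 and CTGA in 17. Of all windows of 73 bases on both strands of the tract, 0.612% held TGATGA, 9.17% held CTGA and 0.0918% held both. Both groups had 7 genes with both boxes. The ends of 4 genes are shown in pairs of start and end, with the boxes in capitals, for a deep and a shallow gene of Rian and for the genes that overlap MBII-78 and MBII-19, all from mm9.
SNORD113 at chr12:110884339-110884412, start: cgggccaaTGATGAcgaggtttcgggatta
SNORD113 at chr12:110884339-110884412, end: tgactacgtcactagaggtCTGAggtccat
SNORD113 at chr12:110889634-110889706, start: tggatcaaTGATGAccagcggtagccgtat
SNORD113 at chr12:110889634-110889706, end: tgactacagatctgggagtCTGAgttccac
AF357428 (MBII-78) at chr12:110918155-110918223, start: aggaccgaTGATGAgatctgatggtgtctg
AF357428 (MBII-78) at chr12:110918155-110918223, end: cgatgacatgaacagatatCTGAggtcagg
AF357341 (MBII-19) at chr12:110919729-110919803, start: aggacctaTGATGAgatctggtggcatctg
AF357341 (MBII-19) at chr12:110919729-110919803, end: cagccatgagaacagatgtCTGAggtcagg
The first of these genes lies in a catalog exon of Rian and had 529 reads in BxC and 460 in CxB, and only 54.1% of the 36-base words over it are unique. The second had 1 and 4 reads. The genes with boxes thus ranged from 0 to 529 reads, and a box match says nothing of the level.

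Outside annotated genes and entries, 63 of 743 bins of 1 kb in the cluster had at least 10 reads in each library, or 8.48%. Between the Meg3 end and the Mirg start 57 of 61 such bins did (93.4%), and beyond the Mirg end 6 of 605 (0.992%). Of the 5 such bins with the most reads, 4 lay between Meg3 and Rian, at chr12:110816001-110817000, chr12:110819001-110820000, chr12:110820001-110821000 and chr12:110822001-110823000. They held 743 to 886 reads in BxC and 585 to 776 in CxB.

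The bin with the most reads lay alone beyond Mirg, at chr12:111132001-111133000, with 5100 reads in BxC and 4188 in CxB. On the plus strand were 94.9% and 94.1% of them, against 40.7% and 41.4% in the tract. Of its unspliced reads, 99.7% and 99.9% began at a 36-base word that occurs more than once in the genome. Over the tract from Meg3 to Mirg this share was 0.0344% and 0.0437%. Where these reads came from was not tested.

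The levels of the well covered members differed by less than 1.5-fold between the libraries. The ratio of CxB over BxC RPM was computed for the 5 entries that reached 100 reads in both. None of the 5 differed by more than 1.5-fold, and 1.10% of 15427 annotated genes did. The ratio on the log2 scale was −0.10 for Meg3 (−0.11 to −0.09), 0.54 for Rian (0.46 to 0.62) and −0.41 for Mirg (−0.52 to −0.30). It was −0.11 for MBII-426 (−0.33 to 0.11) and 0.03 for MBII-343 (−0.08 to 0.14). Among all genes the 5th and 95th percentiles were −0.29 and 0.28, so Rian and Mirg lay outside them, and the interval of Rian reached past 1.5-fold. Another 7 entries had at least 10 reads in both libraries but fewer than 100 in one, and 4 of these lay past 1.5-fold. Among 4412 annotated genes with counts in this range 31.0% did, so ratios at such depth vary widely in any case. The log2 ratio was 1.68 for miR-431 (0.64 to 2.83) and 0.82 for miR-337 (−0.32 to 2.00), and it was −0.65 for miR-433 (−1.20 to −0.12) and −0.67 for miR-410 (−1.36 to 0.00). The intervals of miR-337 and miR-410 reached 0. The miR-410 reads are also part of the Mirg count, so the ratio of miR-410 is not separate from that of Mirg. The other 11 entries had fewer than 10 reads in at least 1 library. Among them miR-376 was at −0.77 (−2.32 to 0.64).

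The Rian and Mirg values depend on the measure. Over annotated exons the log2 ratio was 0.17 for Rian (0.15 to 0.20), −0.34 for Mirg (−0.43 to −0.24) and 0.04 for Meg3 (0.03 to 0.05). By distinct positions in catalog exons it was 0.26 for Rian, −0.18 for Mirg and 0.13 for Meg3. Over the whole span of its catalog entry, introns included, Rian turned to −0.11 and Mirg was at −0.07. With sense reads only Mirg was at −0.21 and Rian at 0.51. The percentiles of all genes were computed only for reads of either strand over annotated exons. By that measure Mirg lay outside them and Rian inside. With reads of either strand over catalog exons, both lay outside them. No percentiles were computed for distinct positions, sense reads or whole spans, so those values cannot be placed in the same way. Of the 8 catalog exons of Rian, the fifth, with 355 reads in BxC and 563 in CxB, is joined when the exon of 62 bases is skipped. The longest, the eighth, had 1018 and 1127 reads, and the fourth, which is the skipped exon, had 155 and 147. The other 5 exons had between 103 and 376 reads in BxC and between 161 and 462 in CxB. The part of the skipping in the ratio was not tested.

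**Figure D5:**
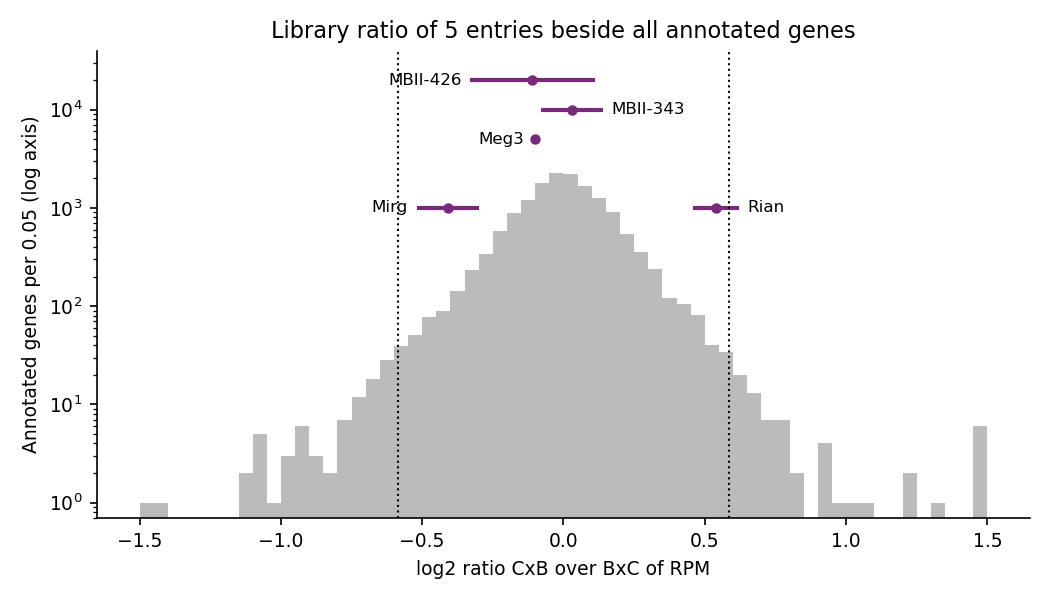
Number of annotated genes (log axis) by the log2 ratio of CxB over BxC RPM, with values beyond 1.5 gathered in the end bins, and the 5 entries that reached 100 reads in both libraries as points with 95% intervals at arbitrary height. Dotted lines mark 1.5-fold, and all 5 points lie between them, with Rian at 0.54 and Mirg at −0.41 nearest to the lines.

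Small stretches of the tract differed between the libraries. Of 342 windows of 100 bases with at least 100 reads in 1 library, 11.7% differed by more than 2-fold, 20 in each direction. Of 199102 such windows in the rest of the genome, 0.884% did. A window could enter through the library where it was high, in the tract as in the rest of the genome. The windows were not matched on depth, and those of the tract share transcripts and copies of the same read. The shares are therefore given as a description only. The most uneven was chr12:110870101-110870200, in Rian, with 124 reads at 38 positions in BxC and 0 in CxB. Another Rian window, chr12:110894001-110894100, had 850 reads at 56 positions in BxC and 50 at 16 positions in CxB. In Mirg, chr12:110983201-110983300 had 30 reads at 17 positions in BxC and 162 at 31 in CxB. All 36-base words that start in the windows with 124 and 162 reads are unique in the reference, and 89.0% of those in the window with 850. The strain of the maternal allele differs between the libraries, and whether its sequence changed alignment there was not tested.

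Genes around the tract and genes of the small RNA pathways were close between the libraries. The protein-coding neighbors Begain, Dlk1, Rtl1 and Dio3 had log2 ratios from −0.08 to 0.19, and Dio3os had 45 reads in BxC and 51 in CxB. The Rtl1 exons stood at 3.13 and 2.96 RPM per kb, which includes reads of the microRNA host on the other strand. Of the listed microRNA-processing genes, Drosha, which cuts hairpins from their host, stood at 25.1 and 22.7, Dgcr8, its partner, at 4.10 and 4.66, and Dicer1, which cuts the hairpin loop, at 8.22 and 8.40. Over the 10 genes of this list with at least 100 reads the log2 ratios ran from −0.14 to 0.18, and 0 passed 1.5-fold.

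Of the C/D box snoRNA proteins, the methyltransferase gene Fbl stood at 18.2 in BxC and 16.3 in CxB, and the core proteins Nop56 and Nop58 at 12.4 and 12.4 and at 18.4 and 15.3. The 5 genes of this list had log2 ratios from −0.27 to 0.01. Of the list of PRC2, a repressive complex that methylates histone H3, Ezh2, its methyltransferase, stood at 7.25 and 7.60, and the 4 genes ran from −0.23 to 0.25. Of the list of other imprinted noncoding RNAs, 4 of 8 symbols were found. Among these is Snrpn, a protein-coding gene, at 156 and 150 RPM per kb. H19 was at 189 and 141 RPM per kb, near the annotated Meg3 gene in BxC. Nespas was at 6.36 and 6.08, and Airn at 0.887 and 0.743, below Mirg. The 4 log2 ratios ran from −0.42 for H19 to −0.06 for Snrpn, so H19 also lay outside the percentiles of all genes.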

How the data were processed

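The authors sequenced polyA-selected RNA of E17.5 brains and, by their methods and notes, aligned it with Novoalign to mm9. Which of their alignments was deposited is not given in the sources used here. Each deposited line is an alignment, and its whole-number count (column 4) was taken as the number of identical reads, as inferred from the values. Several lines can share a position, strand and blocks, and these were joined into 1 position. Catalog entries were read with their listed exons. Columns left out because no sample could be assigned numbered 0.

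A read was counted over an interval where an aligned block overlapped it by at least 1 base. The design had set sense reads as the measure unless the data proved unstranded. They did, so reads of either strand became the measure also for bins and flanks, and sense reads the alternative. Levels are reads scaled to a library of 1000000 (RPM) per kb of exon. Detection needed 10 reads in each library, ratios 100, junctions 2 and bins 10. Genes are GENCODE vM1 on the same build, and miRNA sequences are RefSeq's (GRCm38.p6 table), placed by exact match. Intervals are Poisson, Clopper-Pearson or conditional binomial at 95%. No test was run, as each cross has 1 library.

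Named items are all members, the lists of neighbors, imprinted noncoding RNAs, processing, snoRNA and PRC2 genes and markers, the 10 junctions and the 5 bins with the most reads. The other hairpins, snoRNA genes, windows and junctions in the text were picked with their values known. The members and lists were chosen with earlier results of these data known. Interval coverage was tested on simulated independent counts. This is the model that the intervals assume, so the test says nothing of repeated reads. Python 3.11.15 was used with numpy 2.4.6, pandas 2.3.3, scipy 1.17.1, numba 0.67.0 and matplotlib 3.10.9. Alternatives were distinct positions, sense reads, whole spans, scalings, minimums, flank and bin sizes.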

Additional observations from a re-analysis of the deposited data

How the results depend on the processing

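No paired analysis was possible because the design holds 1 library per cross and no test. Of the 23 entries, 12 were detected at 10 reads and 5 at 100 reads. By distinct positions, which count reads of the same place once and therefore flatten deep regions, 8 were detected and most levels moved. The median level over detected members was 5.52 RPM per kb in BxC and 4.57 in CxB. It was 10.5 and 8.62 by distinct positions, 2.33 and 2.04 with sense reads only, and 4.57 and 3.41 over whole spans. The level of Meg3 fell from 335 to 59.1 in BxC and from 312 to 64.6 in CxB by distinct positions, to 131 and 118 with sense reads only, and over whole spans to 104 in CxB and by a like factor in BxC. The median log2 ratio of −0.10 was −0.05 by distinct positions and −0.21 with sense reads only. For MBII-343 the ratio of 0.03 turned to −0.15 by distinct positions and −0.24 with sense reads only, for Meg3 −0.10 turned to 0.13 by distinct positions, and for Rian 0.54 turned to −0.11 over the whole span of its catalog entry. The plus-strand share of 40.7% and 41.4% was 50.7% and 49.9% by distinct positions. The share of tract reads outside exons was 15.2% and 13.7%, and it was 40.6% and 37.8% by distinct positions and 14.6% and 13.0% with plus-strand reads only. The 63 bins outside genes became 39 at a minimum of 30 reads, and the 9 junctions not annotated became 3 at a minimum of 10 reads. Meg3 over Rian, 4.23 and 3.59 on the log2 scale, was 1.48 and 1.34 by distinct positions and 5.05 and 5.04 over whole spans. Rian over Mirg, 0.85 and 1.80, was 0.72 and 1.16 by distinct positions and turned to −0.16 and −0.19 over the whole spans of the catalog entries. The rank correlation of 0.968 between libraries was 0.977 in bins of 5 kb. The 3 donors whose acceptor use differed became 2 by distinct positions. For these shifts the cause was not tested beyond the construction of each setting. All 14 microRNA entries stayed below their flanks with flanks of 1000 bases, 12 by distinct positions and 11 with flanks of 200 bases. Scaling without chromosome X and mitochondrial reads, or by the median gene, changed no ratio of the 5 entries beyond its interval.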
